A study of Mus musculus with 27 samples.

Results

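Gpc3 and Gpc4, the X-linked glypican genes, were followed through every library of the series that carries X allelic ratios. They were taken by their gene names from the deposited X tables and are 2 of 276 X genes in all, 2 of the 270 in the table built around Spen and 2 of the 254 in the table built around CIZ1. Both genes have a value in all 23 libraries of 12 groups, and no value is missing. The tables share 4 libraries, in which the values are identical.

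Glypicans are cell surface proteoglycans, core proteins held in the outer membrane by a glycosylphosphatidylinositol (GPI) anchor and carrying heparan sulphate chains. They bind secreted growth factors and alter Wnt, Hedgehog, BMP and FGF signalling. Loss of human GPC3 causes the Simpson-Golabi-Behmel overgrowth syndrome, and GPC4 lies beside GPC3 on the X chromosome of human and mouse. In female cells X-linked genes are subject to X inactivation, in which the long noncoding RNA Xist coats 1 X chromosome in cis. SPEN is a repressor that binds Xist and contacts corepressors through its SPOC domain, and CIZ1, found in the nuclear matrix, also binds Xist.

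The study sequenced chromatin-associated RNA, which is rich in nascent transcripts, from female mouse embryonic stem (ES) cells of a 129S X Cast cross. In all of the lines the endogenous Xist promoter of the 129S allele had been exchanged for a doxycycline-inducible TetOn promoter, with a Bgl stem-loop array at the Xist 3' end. The series compared silencing in lines altered in SPEN or CIZ1 with that in their parental line.

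The lines were SPOCmut, with a mutated SPOC domain of Spen, SpenKO, called SpenRRM in the series text, CIZ1KO, with a Ciz1 knockout, and the parental WT line. SPOCmut was sampled at 24 h of doxycycline and at 0 h, without it, in 3 clones each, C10, C2 and G1. SpenKO was sampled at 0 h in 2 libraries, at 3 h in 1 and at 24 h in 2. CIZ1KO had 2 libraries at 0 h and 2 at 24 h, and WT had 2 each at 0 h, 3 h and 24 h. CIZ1KO and WT also had 1 library each of neural precursor cells (NPC) at day 30, and the labels do not say whether doxycycline was added to these. Doxycycline was given at 1.0 to 1.5 µg/mL, and ES cells were grown on mouse fibroblast feeders. Only the SPOCmut replicates are labelled as separate clones. Elsewhere the labels name no separate cultures, so p-values measure the spread between libraries, which may be technical. In the limma fits that spread is pooled over all libraries fitted together, and not only those compared.

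Values are allelic ratios, here read as the 129S share of the reads assigned to an allele, so that 0.5 means equal RNA from both X chromosomes. The sources used here do not name the numerator. It is read as 129S because Xist, which the labels place under the inducible promoter on 129S, had ratios from 0.933 to 0.999. The library median over X genes ran from 0.0541 to 0.522. The number of reads behind a ratio is unknown, and less RNA from the 129S X and more RNA from the Cast X cannot be told apart. The identity of the cells cannot be checked on these tables, and the part of feeder RNA in the ratios was not tested.

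In the mm10 coordinates of the deposited tables, Gpc4 spans chrX:52053017-52164923 and Gpc3 chrX:52272426-52613974, both on the minus strand, with 107.5 kb between them. Gpc3 is 342 kb long, the 6th longest of the genes measured in the Spen table, and Gpc4 is 112 kb long, the 40th longest, against a median of 24.8 kb. Gpc3 lies 50.8 Mb and Gpc4 51.3 Mb from Xist. In the GENCODE M21 annotation the principal transcript of Gpc3 has 8 exons and that of Gpc4 has 9. The antisense genes Gm14582 and A630012P03Rik and the microRNA genes Mir6384 and Mir717 overlap Gpc3, and none overlaps Gpc4. The strand setting of the counting is not given in the sources used here, so reads of the antisense genes cannot be told apart from those of Gpc3 with certainty.

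The promoter windows are shown because both genes had fallen in WT at 24 h, and each window holds the RefSeq start of its gene. They run from 250 bases before to 50 bases after the RefSeq start, read along the minus strand of GRCm38.p6, at chrX:52613925-52614224 for Gpc3 and chrX:52164874-52165173 for Gpc4. The GENCODE M21 start of Gpc4, at 52165252, lies upstream of its window. Capitals mark matches to the GC box GGGCGG, searched on both strands, which here were all on the reverse strand.
Gpc3: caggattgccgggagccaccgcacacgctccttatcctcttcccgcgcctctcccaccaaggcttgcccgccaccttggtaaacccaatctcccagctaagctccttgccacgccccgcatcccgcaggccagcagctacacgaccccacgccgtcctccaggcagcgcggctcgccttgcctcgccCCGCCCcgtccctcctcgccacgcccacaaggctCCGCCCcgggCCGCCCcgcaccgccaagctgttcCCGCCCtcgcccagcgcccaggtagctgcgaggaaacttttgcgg
Gpc4: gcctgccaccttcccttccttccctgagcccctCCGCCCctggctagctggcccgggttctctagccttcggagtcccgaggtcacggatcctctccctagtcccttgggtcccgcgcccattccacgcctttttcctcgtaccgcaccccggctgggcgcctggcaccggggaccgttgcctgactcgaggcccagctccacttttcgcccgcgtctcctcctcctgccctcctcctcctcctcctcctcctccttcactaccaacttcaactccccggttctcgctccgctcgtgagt

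The Gpc3 window held 4 GC boxes, 30 CpG dinucleotides and 70.7% G and C. The Gpc4 window held 1 GC box, 22 CpG dinucleotides and 66.7% G and C. Of 1046 X promoters of the same length, 33.6% held a GC box, and their medians were 50.7% G and C and 7 CpG dinucleotides. Neither window held the TATA box TATAAA, present in 14.8% of X promoters, or the E box CACGTG, present in 8.99%, both searched on both strands. A match describes letters and is not a binding site.

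Before induction Gpc3 was near equal expression from both X chromosomes, and Gpc4 was below it in every line. At 0 h Gpc3 had ratios of 0.524, 0.520 and 0.525 in SPOCmut clones C10, C2 and G1, 0.503 and 0.507 in SpenKO, 0.501 and 0.494 in CIZ1KO, and 0.516 and 0.483 in WT. Gpc4 at 0 h had ratios of 0.433, 0.398 and 0.393 in the same SPOCmut clones, 0.446 and 0.418 in SpenKO, 0.381 and 0.410 in CIZ1KO, and 0.435 and 0.372 in WT. All 9 Gpc4 values, from 0.372 to 0.446, lay below the X median of their own library, while Gpc3, at 0.483 to 0.525, did so in 5 of 9. Ranked from the lowest ratio, Gpc4 was 28th and Gpc3 118th of 270 genes in WT at 0 h.

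Neither gene was called as different between lines at 0 h in limma, with adjustment over all genes of a table. SPOCmut minus WT was 0.0233 ± 0.0101 (SE) for Gpc3 (adjusted p = 0.390) and 0.00510 ± 0.0192 for Gpc4 (adjusted p = 0.938). SpenKO minus WT was 0.00549 ± 0.0111 for Gpc3 (adjusted p = 0.897) and 0.0289 ± 0.0210 for Gpc4 (adjusted p = 0.809). CIZ1KO minus WT was -0.00231 ± 0.0170 for Gpc3 (adjusted p = 0.961) and -0.00769 ± 0.0253 for Gpc4 (adjusted p = 0.916). In each of these comparisons limma called 0% of X genes, while at an unadjusted p under 0.05 it had 8 lower and 26 higher in SPOCmut, 4 and 18 in SpenKO, and 4 and 12 in CIZ1KO. Gpc3 in SPOCmut was 1 of these, at an unadjusted p of 0.0427.

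**Figure D1:**
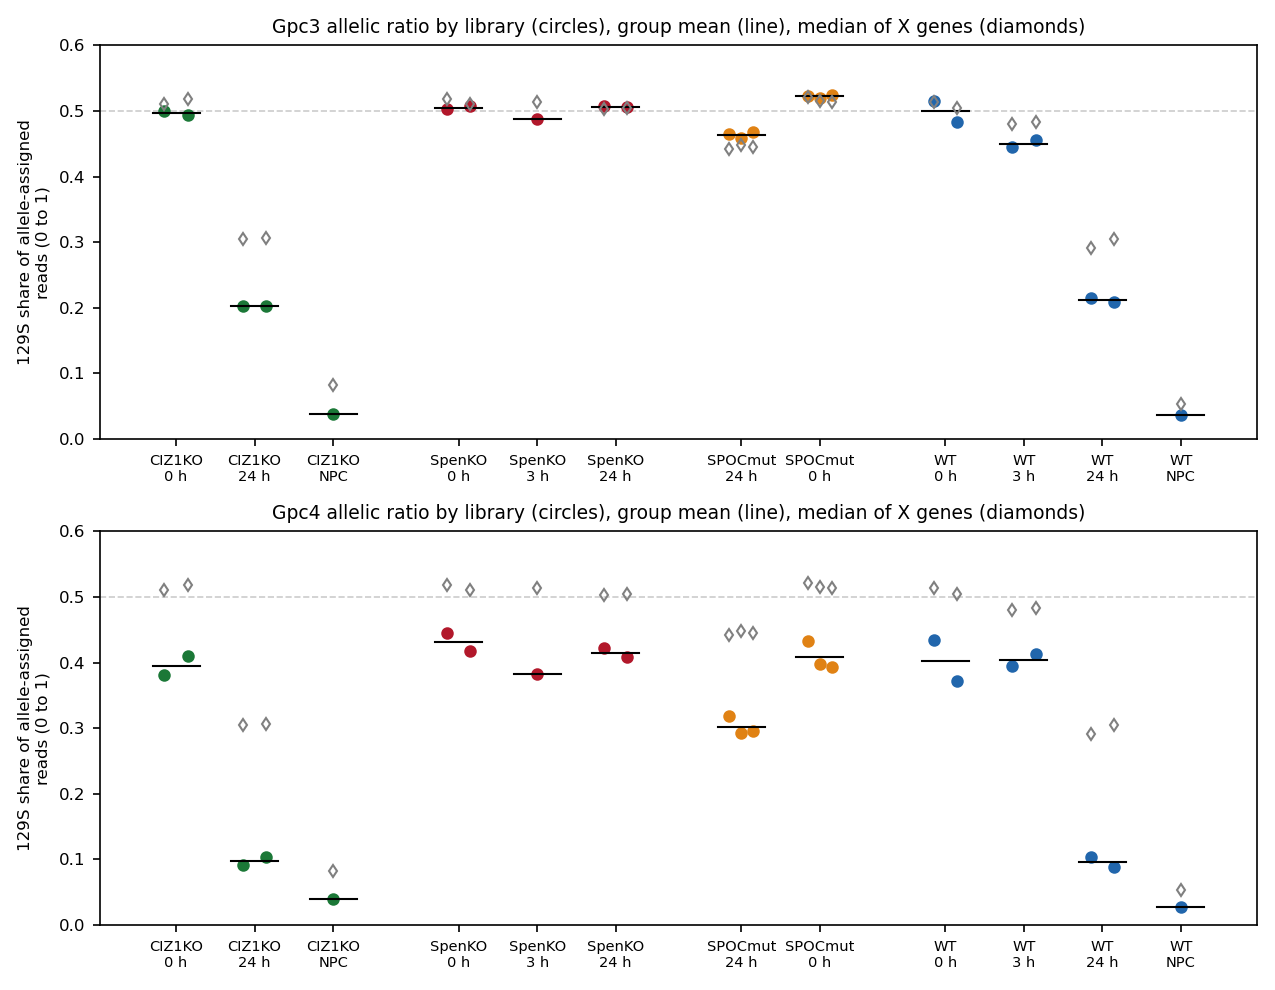
Allelic ratio of Gpc3 (upper panel) and Gpc4 (lower panel) in each of the 23 libraries, with the group on the horizontal axis and the 129S share of allele-assigned reads on the vertical axis. Circles are libraries, lines are group means and open diamonds are the median over X genes of the same library. In WT at 24 h Gpc3 lies at 0.216 and 0.209 and Gpc4 at 0.104 and 0.0878, and in SpenKO at 24 h Gpc3 lies at 0.508 and 0.506 and Gpc4 at 0.422 and 0.408.

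With induction of Xist in WT cells both glypican genes lost much of their 129S share within 24 h. Gpc3 had ratios of 0.516 and 0.483 at 0 h, 0.446 and 0.455 at 3 h, and 0.216 and 0.209 at 24 h. Gpc4 had ratios of 0.435 and 0.372 at 0 h, 0.395 and 0.412 at 3 h, and 0.104 and 0.0878 at 24 h. The 3 h libraries of Gpc3 lay below both 0 h libraries, while those of Gpc4 lay between them, and at 24 h both genes were below every earlier library.

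At 24 h Gpc3 averaged 0.213 ± 0.00434, against 0.500 ± 0.0233 at 0 h (SD, n = 2 each), a change of -0.287 ± 0.0111 (SE, adjusted p = 4.55e-09). Gpc4 averaged 0.0957 ± 0.0111 at 24 h, against 0.403 ± 0.0447 at 0 h, a change of -0.308 ± 0.0210 (adjusted p = 1.82e-07). With only the WT 0 h and 24 h libraries fitted in limma, the SE was 0.0193 for Gpc3 (adjusted p = 0.00237) and 0.0285 for Gpc4 (adjusted p = 0.00308). Both members fell, in a comparison in which 88.9% of 270 X genes fell. The median change was -0.197, and Gpc4 had the 35th and Gpc3 the 49th largest fall. Gpc4 was then the 18th lowest ratio of 270 and Gpc3 the 65th. Relative to the other X genes, with the median of each library subtracted, the changes were -0.0762 for Gpc3 (adjusted p = 0.000642) and -0.0968 for Gpc4 (adjusted p = 0.00274).

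As a ratio cannot fall below 0, the remaining share was also expressed as odds, the 129S reads per Cast read. By this measure, from the group means, Gpc3 kept 27.0% of its 0 h odds at 24 h and Gpc4 kept 15.7%. On the log2 odds scale the changes in limma were -1.89 ± 0.0651 for Gpc3 and -2.68 ± 0.138 for Gpc4.

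Earlier in the WT time course only Gpc3 was called as changed, and the changes of the genes were not shown to differ. At 3 h Gpc3 averaged 0.4504 ± 0.00693 (SD, n = 2), a change from 0 h of -0.0492 ± 0.0111 (SE, limma adjusted p = 0.00796). Gpc4 averaged 0.404 ± 0.0123, a change of 0.000511 ± 0.0210 (adjusted p = 0.996, 95% interval from -0.0460 to 0.0470). Thus 1 of the 2 members fell, against 17% of X genes, whose median change was -0.0205. The Gpc3 call at 3 h was lost without WT 3 h replicate 1 (-0.0443, adjusted p = 0.0586) and without WT 0 h replicate 1 (-0.0327, adjusted p = 0.0653). It was also lost when only the 0 h and 3 h libraries were fitted (adjusted p = 0.224) and with library medians subtracted (-0.0229, adjusted p = 0.228).

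Both members fell between 3 h and 24 h, where 85.6% of X genes fell. The change was -0.238 ± 0.0111 for Gpc3 (adjusted p = 4.26e-08) and -0.308 ± 0.0210 for Gpc4 (adjusted p = 2.30e-07). The Gpc4 fall in this interval was the 24th largest of 270. With library medians subtracted the changes were -0.0534 for Gpc3 (adjusted p = 0.00659) and -0.124 for Gpc4 (adjusted p = 0.000689). The 24 h and 3 h comparisons share the same WT libraries and are not independent of each other.

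In SpenKO cells neither gene was called as changed at 24 h. Gpc3 had ratios of 0.503 and 0.507 at 0 h, 0.488 at 3 h, and 0.508 and 0.506 at 24 h. Gpc4 had ratios of 0.446 and 0.418 at 0 h, 0.382 at 3 h, and 0.422 and 0.408 at 24 h. The ranges at 24 h and 0 h overlapped for both genes, and the single 3 h library was below the other SpenKO libraries for both genes. No test was made for that library.

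SpenKO at 24 h minus 0 h was 0.00164 ± 0.0111 for Gpc3 (adjusted p = 0.989, 95% interval from -0.0229 to 0.0261). It was -0.0172 ± 0.0210 for Gpc4 (adjusted p = 0.940, interval from -0.0637 to 0.0294). So 0 of 2 members were called in limma, where 0.741% of X genes were called in either direction. Gpc3 held 100.7% and Gpc4 93.2% of its 0 h odds.

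Set against WT at 24 h, both members were higher in SpenKO, Gpc3 by 0.294 ± 0.0111 (adjusted p = 4.62e-09) and Gpc4 by 0.319 ± 0.0210 (adjusted p = 1.49e-07), where 88.1% of X genes were higher. The 24 h response itself, the change from 0 h, was tested in limma as an interaction. SpenKO minus WT was 0.289 ± 0.0157 for Gpc3 (adjusted p = 1.92e-07) and 0.290 ± 0.0297 for Gpc4 (adjusted p = 9.53e-06). A positive value means that the ratio fell less than in WT. That contrast called 76.7% of X genes higher. With library medians subtracted, SpenKO minus WT at 24 h was 0.0880 for Gpc3 (adjusted p = 0.000261) and 0.113 for Gpc4 (adjusted p = 0.00132). The response difference was then 0.0882 for Gpc3 (adjusted p = 0.00493) and 0.0899 for Gpc4 (adjusted p = 0.0471).

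The SPOCmut clones gave values between those of WT and SpenKO at 24 h. Gpc3 had ratios of 0.465, 0.459 and 0.468 at 24 h in clones C10, C2 and G1, against 0.524, 0.520 and 0.525 at 0 h. Gpc4 had ratios of 0.318, 0.293 and 0.296 at 24 h in these clones, against 0.433, 0.398 and 0.393 at 0 h. All 3 clones were lower at 24 h than every 0 h clone for both genes.

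Gpc3 averaged 0.464 ± 0.00454 at 24 h, against 0.523 ± 0.00269 at 0 h (SD, n = 3 each), a change of -0.0589 ± 0.00904 (SE, adjusted p = 0.000308). Gpc4 averaged 0.303 ± 0.0134, against 0.408 ± 0.0218, a change of -0.106 ± 0.0172 (adjusted p = 0.000470). Both members fell, as did 49.6% of X genes. Gpc4 had the 81st and Gpc3 the 144th largest fall of 270, around a median change of -0.0658. By odds Gpc3 kept 79.0% and Gpc4 62.9% of the 0 h value. With the median of each library subtracted, the Gpc3 change was 0.0125 (adjusted p = 0.377) and the Gpc4 change -0.0343 (adjusted p = 0.126), so neither was called relative to the other X genes.

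At 24 h both members were higher in SPOCmut than in WT, Gpc3 by 0.251 ± 0.0101 (adjusted p = 9.33e-09) and Gpc4 by 0.207 ± 0.0192 (adjusted p = 3.31e-06), where 78.9% of X genes were higher. The Gpc3 difference was the 24th highest of 270 and that of Gpc4 the 47th. The response differed from that of WT by 0.228 ± 0.0143 for Gpc3 (adjusted p = 5.44e-07) and 0.202 ± 0.0272 for Gpc4 (adjusted p = 0.000122), where 58.5% of X genes were higher. After subtraction of library medians, SPOCmut minus WT at 24 h was 0.104 for Gpc3 (adjusted p = 5.73e-05) and 0.0591 for Gpc4 (adjusted p = 0.0275). The response difference was 0.0887 for Gpc3 (adjusted p = 0.00412) and 0.0624 for Gpc4 (adjusted p = 0.139), so that the Gpc4 call was lost.

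Set against SpenKO at 24 h, both members were lower in SPOCmut, with differences of -0.0428 ± 0.0101 for Gpc3 (adjusted p = 0.00642) and -0.112 ± 0.0192 for Gpc4 (adjusted p = 0.000901), where 40.7% of X genes were lower. With library medians subtracted these differences were 0.0156 (adjusted p = 0.349) and -0.0540 (adjusted p = 0.0530). The response differed from that of SpenKO by -0.0606 ± 0.0143 for Gpc3 (adjusted p = 0.0115) and -0.0886 ± 0.0272 for Gpc4 (adjusted p = 0.0413), where 23% of X genes were lower. With medians subtracted the values were 0.000545 (adjusted p = 0.984) and -0.0275 (adjusted p = 0.592). The Gpc4 call was lost without SPOCmut 24 h clone C2 (-0.0840) or G1 (-0.0855) and without SPOCmut 0 h clone C10 (-0.0761) or C2 (-0.0937). It was also lost without SpenKO 24 h replicate 1 (-0.0818) or 2 (-0.0954) and without SpenKO 0 h replicate 2 (-0.0749), with adjusted p up to 0.147. The comparisons of SPOCmut and SpenKO with WT share the WT libraries.

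**Figure D2:**
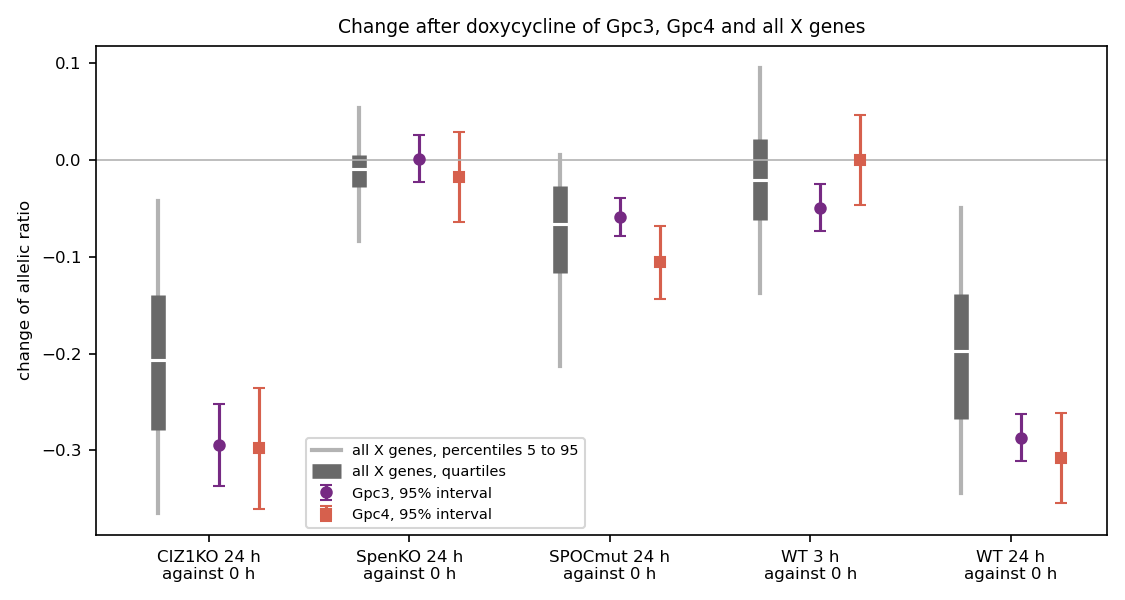
Change of allelic ratio after doxycycline on the vertical axis, by line and time on the horizontal axis, with points and 95% intervals from limma for Gpc3 (circles) and Gpc4 (squares). Grey bars span the quartiles and thin lines the percentiles 5 to 95 of all X genes, and white lines mark their median. In WT at 24 h both genes lie below the median of -0.197, in SpenKO both intervals include 0, and in SPOCmut Gpc3 at -0.0589 lies close to the median of -0.0658.

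In CIZ1KO cells both glypican genes fell after induction and were lower again in NPC. Gpc3 had ratios of 0.501 and 0.494 at 0 h, 0.203 and 0.203 at 24 h, and 0.0383 in NPC. Gpc4 had ratios of 0.381 and 0.410 at 0 h, 0.0922 and 0.103 at 24 h, and 0.0404 in NPC. The stages did not overlap for either gene.

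Between 0 h and 24 h Gpc3 changed by -0.294 ± 0.0170 (adjusted p = 8.80e-05) and Gpc4 by -0.298 ± 0.0253 (adjusted p = 0.000158) in CIZ1KO, where 85% of 254 X genes fell and the median change was -0.207. The falls ranked 52nd for Gpc3 and 49th for Gpc4. Gpc3 kept 25.7% and Gpc4 16.5% of the 0 h odds. Library medians subtracted, the changes were -0.0863 for Gpc3 (adjusted p = 0.0156) and -0.0898 for Gpc4 (adjusted p = 0.0353).

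At 24 h CIZ1KO minus WT was -0.00971 ± 0.0170 for Gpc3 (adjusted p = 0.894, 95% interval from -0.0516 to 0.0322). It was 0.00193 ± 0.0253 for Gpc4 (adjusted p = 0.992, interval from -0.0603 to 0.0642). Limma called 0% of X genes in this comparison, and at an unadjusted p under 0.05 had 4 lower and 21 higher. The response of CIZ1KO minus that of WT was -0.00741 ± 0.0241 for Gpc3 (adjusted p = 0.937) and 0.00962 ± 0.0357 for Gpc4 (adjusted p = 0.942). That contrast also called 0% of X genes, and at an unadjusted p under 0.05 had 4 lower and 7 higher. These intervals bound the differences and do not show that the lines are alike.

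In the NPC groups both genes had lower ratios than in any ES group. Gpc3 was at 0.0383 in CIZ1KO NPC and 0.0368 in WT NPC, and Gpc4 was at 0.0404 in CIZ1KO NPC and 0.0268 in WT NPC. With 1 library each, the lines were not tested against each other. Both genes were below the median of the X genes of the same library, 0.0826 in CIZ1KO NPC and 0.0541 in WT NPC. Of 253 X genes, 251 in CIZ1KO and 242 in WT also had a lower ratio in NPC than their mean at 24 h. Gpc4 ranked 79th and Gpc3 76th lowest of 254 in CIZ1KO NPC, and Gpc4 82nd and Gpc3 101st in WT NPC. The odds of Gpc3 were 4.03% of the 0 h value of ES cells in CIZ1KO NPC and 3.83% in WT NPC. Those of Gpc4 were 6.44% in CIZ1KO NPC and 4.07% in WT NPC.

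Ordered by group mean, Gpc3 was lowest in the NPC groups, followed by CIZ1KO 24 h, WT 24 h, WT 3 h, SPOCmut 24 h and the SpenKO 3 h library. CIZ1KO 0 h, WT 0 h, SpenKO 0 h and SpenKO 24 h came next, each overlapping its neighbour in that order, and SPOCmut 0 h was highest. Gpc4 was likewise lowest in the NPC groups, followed by WT 24 h and CIZ1KO 24 h, which overlapped, and SPOCmut 24 h. The other 7 groups, from the SpenKO 3 h library up to SpenKO 0 h, each overlapped the next. The CIZ1KO and WT NPC values of each gene are single libraries and have no spread.

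Gpc3 was above Gpc4 in 21 of 21 ES libraries, by 0.0428 to 0.172. The difference Gpc3 minus Gpc4 sets the genes against each other within a library, but its size also depends on the level of the ratios. It was 0.147, 0.166 and 0.172 at 24 h in SPOCmut clones C10, C2 and G1, against 0.0903, 0.122 and 0.132 at 0 h. All 3 clones at 24 h were above every clone at 0 h. In SpenKO it was 0.0572 and 0.0887 at 0 h, 0.106 at 3 h, and 0.0860 and 0.0975 at 24 h. In WT it was 0.0812 and 0.112 at 0 h, 0.0505 and 0.0428 at 3 h, and 0.112 and 0.122 at 24 h. CIZ1KO had 0.120 and 0.0837 at 0 h, 0.110 and 0.1000 at 24 h, and -0.00207 in NPC, where WT NPC had 0.01003. In this raw difference the WT 3 h libraries were the lowest of the ES libraries, and the NPC libraries were lower still. In NPC both ratios were close to 0, which leaves little room for a raw difference. The odds were 0.0382 for Gpc3 and 0.0275 for Gpc4 in WT NPC, and 0.0399 and 0.0421 in CIZ1KO NPC. In WT at 3 h they were 0.820 and 0.677. WT NPC thus lay below WT 3 h in the raw difference but not in the ratio of the odds.

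Over the 4 lines together the difference averaged 0.119 at 24 h, against 0.0964 at 0 h, a change of 0.0224 in an exact two-sided permutation test within lines (p = 0.0144, smallest possible 0.000463). After Benjamini-Hochberg adjustment over the 7 tests of this difference it did not pass (exact permutation, adjusted p = 0.100). The other tests of the 7 could not reach 0.05, as their smallest possible exact p was 0.1 in SPOCmut and 0.333 elsewhere. The adjusted value therefore depends on counting tests that could not pass. As a difference of logit ratios the change over lines was 0.467 (exact permutation p = 0.000926, not adjusted). Without CIZ1KO 0 h replicate 2 the change was 0.0179 (exact permutation p = 0.0505). The SPOCmut change was 0.0468 (exact p = 0.1, the smallest possible), that of WT 0.0205 (exact p = 0.333, the smallest possible), that of SpenKO 0.0188 (exact p = 0.667) and that of CIZ1KO 0.00348 (exact p = 1). In WT the difference averaged 0.0466 at 3 h, against 0.0963 at 0 h, a change of -0.0497 (exact p = 0.333, the smallest possible). The 3 h changes of Gpc3 and Gpc4 are therefore not shown to differ.

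**Figure D3:**
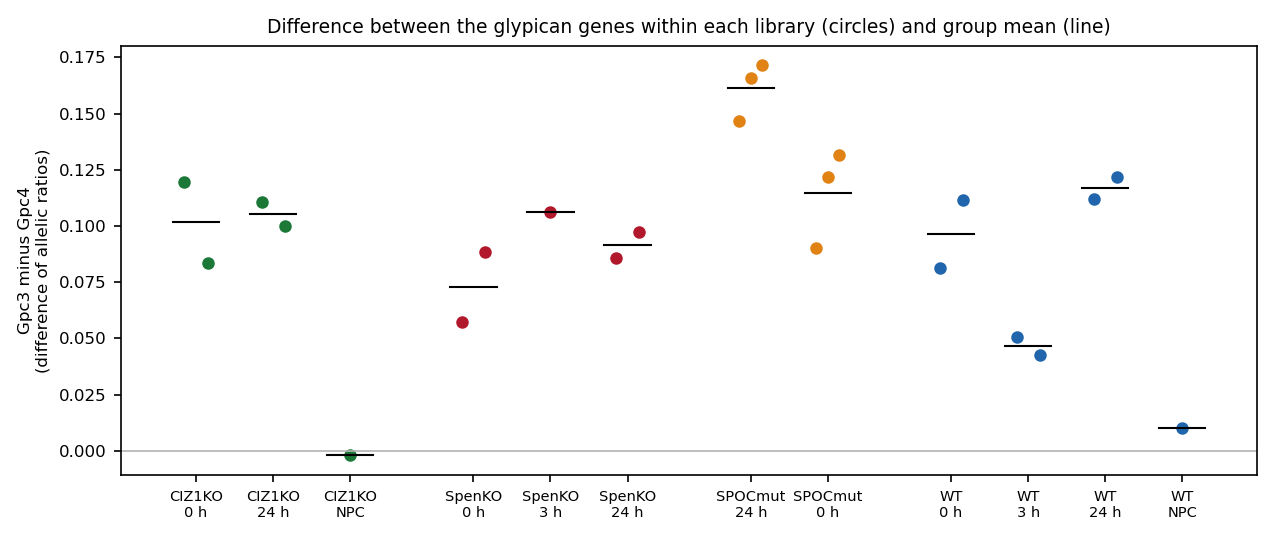
Gpc3 minus Gpc4 within each library on the vertical axis, as a difference of allelic ratios, by group on the horizontal axis. Circles are libraries and lines are group means. The SPOCmut clones at 24 h lie highest, at 0.147 to 0.172, and the WT and CIZ1KO NPC libraries lie near 0, at 0.01003 and -0.00207. In NPC the ratios of both genes are themselves close to 0.

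The neighbourhood was taken as genes whose lower coordinate, on either strand, lies within 1 Mb of that of either glypican gene. Of these, 8 were measured in the Spen table and 9 in the CIZ1 table. In WT at 24 h 7 of 8 fell, beside 88.9% of all X genes, with a median change of -0.281 against -0.197 for all X genes. In CIZ1KO 7 of 9 fell, beside 85% of all X genes, and in SPOCmut 5 of 8, beside 49.6%. In SpenKO 0 of 8 were called in limma, beside 0.741%. These shares are near those of all X genes, so the counts are no result about the neighbourhood. In WT at 3 h 2 of 8 fell, beside 17% of all X genes, Kis2 at -0.198 ± 0.0564 (adjusted p = 0.0268) and Fam122b at -0.112 ± 0.0188 (adjusted p = 0.00194).

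Hs6st2, on the Gpc4 side, encodes a heparan sulphate 6-O-sulphotransferase, which modifies the chains that glypicans carry. Its ratio averaged 0.142 at 24 h in WT, against 0.506 at 0 h, a change of -0.364 ± 0.0358 (adjusted p = 3.19e-06). In the SPOCmut clones C10, C2 and G1 Hs6st2 was 0.400, 0.340 and 0.321 at 24 h, against 0.568, 0.506 and 0.479 at 0 h, a change of -0.164 ± 0.0292 (adjusted p = 0.000867). Its change was -0.345 ± 0.0335 in CIZ1KO (adjusted p = 0.000233) and -0.0368 ± 0.0358 in SpenKO (adjusted p = 0.864). In NPC it was 0.0260 in CIZ1KO and 0.0237 in WT, below both glypican genes.

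On the Gpc3 side, Hprt, a purine salvage enzyme, fell by 0.152 ± 0.0172 in WT (adjusted p = 9.69e-06) and had a change of -0.0104 ± 0.0140 in SPOCmut (adjusted p = 0.556). Phf6, a PHD finger protein, fell by 0.244 ± 0.0289 in WT and fell by 0.138 ± 0.0236 in SPOCmut. Fam122b fell by 0.317 ± 0.0188 in WT and fell by 0.197 ± 0.0153 in SPOCmut. Between the Hs6st2 and Gpc4 genes, Usp26, a deubiquitinase, had changes of -0.149 ± 0.0134 in WT and -0.0480 ± 0.0110 in SPOCmut, both called. The neighbours therefore covered a wide range of changes around the glypican genes. The neighbour not called in WT was 1700080O16Rik, at -0.107 ± 0.0509 (adjusted p = 0.0661).

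**Figure D4:**
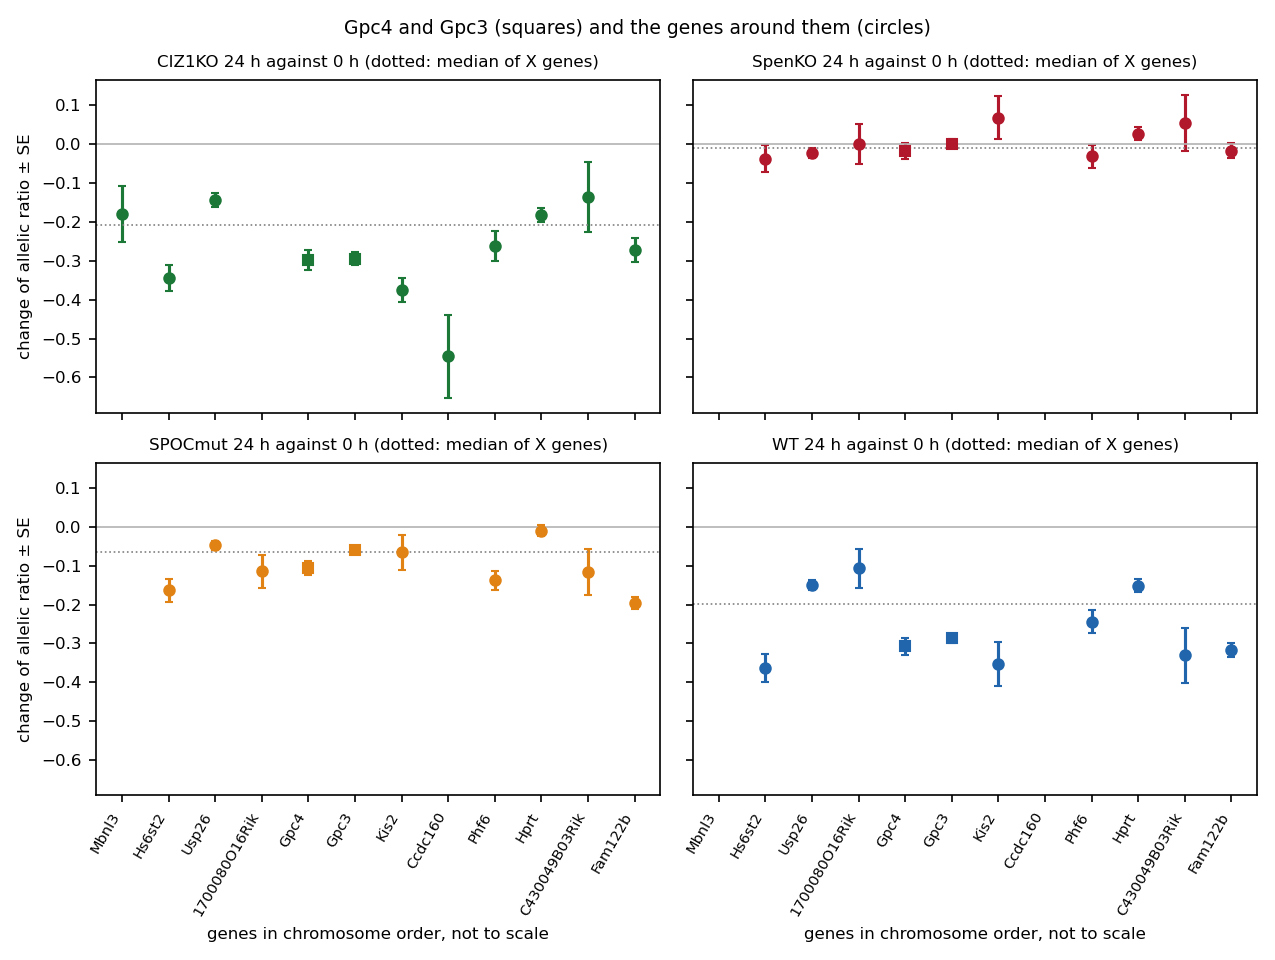
Change of allelic ratio at 24 h with its SE on the vertical axis for Gpc4 and Gpc3 (squares) and the genes around them (circles), in chromosome order, with 1 panel for each line. The dotted line is the median change of all X genes in that line. In WT Gpc4 at -0.308 and Gpc3 at -0.287 lie between Usp26 at -0.149 and Hs6st2 at -0.364, and in SPOCmut Gpc3 at -0.0589 and Gpc4 at -0.106 lie between Hprt at -0.0104 and Fam122b at -0.197.

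Other X-linked genes of glycan synthesis and turnover were measured in 6 of 10 cases, Hs6st2 among them. All 6 fell in WT at 24 h, beside 88.9% of all X genes, and their median change of -0.164 was smaller than the -0.197 of all X genes. Ids, the lysosomal sulphatase that helps to degrade heparan sulphate, fell by 0.180 ± 0.0243 (adjusted p = 3.79e-05), and Chst7, a sulphotransferase of chondroitin chains, fell by 0.168 ± 0.0531 (adjusted p = 0.0118). Ogt, which attaches N-acetylglucosamine to nuclear and cytosolic proteins, fell by 0.110 ± 0.0105 (adjusted p = 2.62e-06). It was the 1 gene of the 6 that fell at 3 h in WT, beside 17% of all X genes. Slc35a2, a UDP-galactose transporter, and Ssr4, a subunit of the translocon-associated complex, had changes of -0.159 ± 0.0650 (adjusted p = 0.0380) and -0.102 ± 0.0411 (adjusted p = 0.0364). In CIZ1KO 5 of 6 fell, beside 85% of all X genes. In SPOCmut 2 of 6 fell, Hs6st2 and Ids, beside 49.6%, and in SpenKO 0 of 6 were called, beside 0.741%.

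Of 9 listed genes of growth factor, Wnt and Hedgehog signalling, 5 were measured and all 5 fell in WT at 24 h, beside 88.9% of all X genes. Their median change was -0.268, against -0.197 for all X genes. Porcn, the acyltransferase that makes Wnt proteins fit for secretion, fell by 0.267 ± 0.0501 (adjusted p = 0.000441). Amer1, which binds the Wnt regulator APC, fell by 0.268 ± 0.0266 (adjusted p = 3.36e-06). Fgf13, an intracellular relative of the FGF ligands, fell by 0.291 ± 0.0216 (adjusted p = 3.50e-07), and the RAF kinase Araf fell by 0.0951 ± 0.0221 (adjusted p = 0.00200). In CIZ1KO 5 of 5 fell, beside 85% of all X genes. In SPOCmut 2 of 5 fell, beside 49.6%, Amer1 by 0.144 ± 0.0217 and Fgf13 fell by 0.153 ± 0.0177, while Porcn was at -0.0158 ± 0.0409. In SpenKO 0 of 5 were called, beside 0.741%, and at 3 h in WT Fgf13 fell by 0.0814 ± 0.0216 (adjusted p = 0.0185).

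Of 19 listed genes of the cell surface and extracellular matrix, 10 were measured in the Spen table and 9 fell in WT at 24 h, near the 88.9% of all X genes. Their median change was -0.280, against -0.197 for all X genes. The adhesion molecule L1cam fell by 0.372 ± 0.0816 and Eda, a ligand of the tumour necrosis factor family, fell by 0.284 ± 0.0166, whereas Srpx was at -0.0389 ± 0.116 (adjusted p = 0.758). In CIZ1KO, where Igsf1 was also measured, 10 of 11 fell, beside 85% of all X genes, and in SpenKO 0 of 10 were called, beside 0.741%. In SPOCmut 7 of 10 fell, beside 49.6%, with a median change of -0.168 against -0.0658 for all X genes. Eda fell by 0.244 ± 0.0135 in SPOCmut. Eda2r, of the tumour necrosis factor receptor family, had a change of -0.0271 ± 0.0112 in SPOCmut (limma adjusted p = 0.0660). At 3 h in WT, Flna, an actin crosslinker, rose by 0.0533 ± 0.0137 (adjusted p = 0.0164), and the other 9 were not called. Of all X genes, 5.19% were called higher and 17% lower in that comparison.

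The genes most like each glypican over the 17 libraries of the Spen table were found by the root mean square difference of the ratio. For Gpc3 they were Mcf2 (0.0277), Snx12 (0.0289), Rbmx (0.0303), Prrg1 (0.0303) and Tbl1x (0.0306), against a median of 0.0839 over all genes. Gpc4 ranked 190th in likeness to Gpc3, at 0.111, a measure that includes the offset in level between them. Pearson's r of the pair, which leaves out that offset, was 0.940 over the 17 libraries. By root mean square difference the genes most like Gpc4 were 2010204K13Rik (0.0440), 2610018G03Rik (0.0472), Arhgef6 (0.0492), Slc9a7 (0.0496) and Dmd (0.0530). The median over all genes was 0.135, and Gpc3 ranked 79th. Mcf2, a guanine nucleotide exchange factor, averaged 0.444 in SPOCmut at 24 h and 0.193 in WT at 24 h, beside 0.479 in WT at 0 h. Dmd, which encodes dystrophin, averaged 0.345 in SPOCmut at 24 h and 0.135 in WT at 24 h, beside 0.467 in WT at 0 h. The libraries share lines and conditions, so these distances are a description.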

How the data were processed

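Per the labels' protocols, libraries of chromatin-associated RNA were prepared with a kit that keeps strand. The deposited values are allelic ratios, and each is a fraction that the authors give for 1 gene in 1 library. Reads were processed on mm10 with tools that include STAR 2.4.2a, Bowtie2 2.3.2, featureCounts and edgeR, per the submitters' processing notes, which give no roles. How genes were chosen for the tables is not given in the sources used here. No read counts accompany the fraction, so depth is unknown and no interval for counting error is given.

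Tables of 270 genes in 17 libraries and 254 genes in 10 libraries were used. A Dox column without a time was read as 24 h. The 4 transgene samples match no column of the tables and are not analysed here. The 12 value columns of the chromosome 15 table were not used here. No pair of replicate libraries had more than 1.11% of its values exactly equal.

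Raw ratios of all genes of a table were fitted with limma 3.58.1 in R 4.3.3, by group with no replicate block, and adjusted by Benjamini-Hochberg over the genes of that table. Calls needed an adjusted p under 0.05. Responses of lines were compared as interaction contrasts. Gpc3 minus Gpc4 was tested by exact permutation within lines in Python 3.11.15. The fits were tested on simulated data. Named genes are the 2 glypican genes and genes drawn from the measured members of 3 gene lists and from the measured neighbours. Neighbours have their lower coordinate within 1 Mb of that of either glypican gene. The 5 genes of smallest root mean square difference from each glypican are also named. The values of 1 listed gene are not reported here. The members and lists were chosen with earlier results of these data known.

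Replicate numbers were checked for pairing by the correlation of deviations from group means between 0 h and 24 h. It was 0.101 in WT, 0.112 in SpenKO and -0.107 in CIZ1KO, and -0.0170, -0.113 and 0.148 in the SPOCmut clones. SPOCmut libraries pair by clone, per the labels. Alternatives were a replicate block, only the libraries compared, library medians subtracted, a logit scale, another adjustment, filters on the 0 h ratio, and each replicate left out. Sequences are those of RefSeq, GRCm38.p6.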

Additional observations from a re-analysis of the deposited data

Results flagged for a closer look

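The 24 h response of both glypican genes differed between lines in limma's test of the difference itself. The same contrasts also called other X genes, at the shares given here. The response is the change from 0 h, so a positive difference from WT means that the ratio fell less than in WT. SpenKO minus WT was 0.289 for Gpc3 and 0.290 for Gpc4, where 76.7% of X genes were called higher. SPOCmut minus WT was 0.228 for Gpc3 and 0.202 for Gpc4, where 58.5% were called higher. SPOCmut minus SpenKO was -0.0606 for Gpc3 and -0.0886 for Gpc4, where 23% of X genes were called lower. Both of these calls, and the Gpc4 call of SPOCmut minus WT, depend on the processing in the ways given further on. The comparisons with WT share the WT libraries.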

How the results depend on the processing

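Apart from replicates left out, 217 recomputed values stayed the same, by side of the threshold or, for numbers of called genes, by size. A further 10 became weaker, each by a lost call except for the number of genes called in SpenKO. Another 3 called values turned sign and also lost the call, and the 2 sets of genes most like the glypicans moved. Of the 217, 3 called in neither setting turned sign with library medians subtracted, to -0.000233 for Gpc3 SpenKO minus WT at 0 h, -0.00333 for Gpc4 SPOCmut minus WT at 0 h and -0.0121 for Gpc4 CIZ1KO minus WT at 24 h. With replicates left out, 16 uncalled values turned sign. With library medians subtracted, SPOCmut at 24 h against 0 h was 0.0125 for Gpc3 and -0.0343 for Gpc4, SPOCmut against SpenKO at 24 h was 0.0156 and -0.0540, and the SPOCmut minus SpenKO response was 0.000545 and -0.0275. The Gpc4 response of SPOCmut minus WT was then 0.0624, and Gpc3 at 3 h in WT was -0.0229. Fitting only the libraries compared left that 3 h value at -0.0492 (adjusted p = 0.224). Under Benjamini-Yekutieli adjustment the SPOCmut minus SpenKO responses of -0.0606 and -0.0886 had adjusted p of 0.0709 and 0.255 in limma. The cause of these losses was not tested. With 1 replicate left out, values ran from -0.0657 to -0.0327 for Gpc3 at 3 h in WT, and from -0.102 to -0.0749 for the Gpc4 response of SPOCmut minus SpenKO, lost in 7 of 10. Leaving out 1 library put Gpc3 minus Gpc4 over lines at 0.0179 to 0.0269. Its median over lines was 0.0197 (exact p = 0.0977), its change in logit ratios 0.467 (exact p = 0.000926), and with labels permuted within the replicate block it was 0.0224 (exact p = 0.0117). Run on the 24 h against 0 h comparisons and the response differences between lines, the replicate block changed no call of Gpc3 or Gpc4. It was not run on the other comparisons. It gave 0 called genes in SpenKO, against 2 without it, and the crossed block in CIZ1KO, added after seeing the data, gave 217 against 216. By Pearson correlation 1 of the 5 genes most like Gpc3 and 0 of 5 for Gpc4 were shared. Read depth is unknown, so it sets no limit that can be stated.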
